A study of Mus musculus with 4 samples.

Results

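The immediate early genes described here are 10 genes, Fos, Fosb, Jun, Junb, Jund, Egr1, Ier2, Atf3, Dusp1 and Hspa1a, chosen by name from the 33219 gene symbols of the expression tables. They were read in tumour cells and in the immune and glial cells of sonic hedgehog (SHH) medulloblastoma, a childhood tumour of the cerebellum that arises from granule neuron progenitors. The libraries came from 4 untreated end-point tumours of Ptch1+/- mice, which carry 1 inactive copy of the hedgehog receptor gene; the title of the series says that the mice were irradiated at birth. All 4 tumours share that genotype and form 1 group, so cell classes are compared within tumours. The labels number the tumours without saying that each came from a different mouse. The p-values below measure only how much the class differences within a tumour vary among these samples. The cells had been stored at low temperature as live suspensions, then thawed in medium with a DNase, marked with a dye that dead cells take up, sorted for live cells and run on the 10x Genomics platform. All 10 genes were listed for tumours 1, 2 and 4, while 8 were listed for tumour 3, where Fosb and Hspa1a were not listed.

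Immediate early genes are transcribed within minutes of a growth factor, calcium signal, wound or stress, because the factors that switch them on, such as SRF with its ELK partners and CREB, are already bound or waiting in the cell and need only to be phosphorylated. FOS and JUN proteins pair to form the AP-1 transcription factor, EGR1 is a zinc finger transcription factor, and DUSP1 is a phosphatase that switches MAP kinases off again and so closes the loop. HSPA1A is a heat-inducible chaperone under the heat shock factor HSF1. Enzymatic dissociation is known to induce many of these genes, so in dissociated tissue their levels can reflect handling as well as signalling in the tissue. The part of handling in the values below was not tested.

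The promoter sequences below are shown because the members are often read as 1 programme, and the letters show where they share a known control element and where they do not. RefSeq promoters (GRCm38.p6) were found for 8 of the 10 members; the Jund window starts 1210 bases before the gene in the GENCODE annotation and is left out of the counts, which leaves 7. In the 250 bases before the start, the cAMP response element core TGACG (either strand) stood in 5 of these 7 genes, against 17.8% of the 32851 mouse promoter windows of that length. The full element TGACGTCA, which contains the core on both strands, stood in 1 of the 7 (Dusp1), against 1.55% of all windows. The heat shock element core GAANNTTC stood in Hspa1a and Jun, against 6.69% of all windows, and the TATA box letters TATAAA stood in Fos, against 12.4%. The AP-1 site TGANTCA and the CArG box, the SRF-binding element, had no match in any of the 7 windows, against 6.75% and 1.47% of all windows; known elements can lie farther from the start than these windows reach. Each sequence below is the 150 bases before the start, 5′ to 3′, with matches to these motifs in capitals. Positions are chr12:85473740-85473889 (plus strand) for Fos, chr7:19310046-19310195 (minus strand) for Fosb, chr8:84978749-84978898 (minus strand) for Junb, chr17:26508473-26508622 (minus strand) for Dusp1, chr1:191183334-191183483 (minus strand) for Atf3 and chr17:34972157-34972306 (minus strand) for Hspa1a, each ending where the RefSeq transcript starts; for Atf3 and Dusp1 that start lies inside the longer gene span of the GENCODE annotation.
Fos: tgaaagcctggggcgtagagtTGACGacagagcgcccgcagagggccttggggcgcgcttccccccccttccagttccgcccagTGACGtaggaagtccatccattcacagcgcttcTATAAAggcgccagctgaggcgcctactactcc
Fosb: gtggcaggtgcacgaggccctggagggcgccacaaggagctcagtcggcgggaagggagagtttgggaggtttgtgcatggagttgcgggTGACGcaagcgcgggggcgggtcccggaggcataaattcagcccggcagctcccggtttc
Junb: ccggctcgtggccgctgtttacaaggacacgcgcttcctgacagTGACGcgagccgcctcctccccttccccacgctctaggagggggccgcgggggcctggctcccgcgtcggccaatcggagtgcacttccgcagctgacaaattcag
Dusp1: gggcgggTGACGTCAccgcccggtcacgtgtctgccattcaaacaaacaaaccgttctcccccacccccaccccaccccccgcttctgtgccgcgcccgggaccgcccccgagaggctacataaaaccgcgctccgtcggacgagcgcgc
Atf3: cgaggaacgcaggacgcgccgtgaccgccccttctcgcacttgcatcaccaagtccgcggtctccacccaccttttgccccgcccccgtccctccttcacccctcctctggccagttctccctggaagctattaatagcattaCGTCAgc
Hspa1a: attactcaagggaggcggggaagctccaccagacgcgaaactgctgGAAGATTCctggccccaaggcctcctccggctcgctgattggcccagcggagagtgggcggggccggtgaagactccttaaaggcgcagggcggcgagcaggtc
In Fos the core stands at -129 and -66 and the TATA box at -33, counted from the start to the first base of the match. In Dusp1 a further core at -191 lies outside the printed stretch. In Atf3 the core lies 7 bases before the start, and in Hspa1a the heat shock core stands at -104.

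Several of the genes are compact, though not all. In the GENCODE M21 annotation of GRCm38, 5 of the 10 (Jun, Junb, Jund, Ier2 and Hspa1a) have a principal transcript of a single exon, against 7.10% of 21870 protein-coding genes. The median gene span was 3810 bases for the members and 17337 for all protein-coding genes. Fos (chr12:85473890-85477273) has 4 exons and 4 copies of the AU-rich pentamer ATTTA in its 3′ untranslated region, and Jun (chr4:95049034-95052222) has 4 as well, an element known for rapid mRNA decay. The share of members with at least 3 such copies, 4 of 10, was close to the 31.4% of all genes.

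Cells were assigned to classes by clustering without the members, and 6409 of the 6509 deposited cells were analysed after removal of likely doublets. The tumours gave 793, 2535, 1217 and 1864 analysed cells, in the order 1 to 4 that is used throughout, with median depths of 15284, 7754, 6799 and 7825 UMIs per deposited cell. A UMI is a molecular tag that marks 1 captured mRNA. Progenitor-like cells numbered 281, 1474, 628 and 157, and their summed granule progenitor markers (10 genes, among them Atoh1, Gli1 and Mycn) stood between 2142 and 4048 CPM, a gene's share of all UMIs of the cells summed, on the same scale in every class. Neutrophil-like cells (378) came from tumour 4 alone, skeletal muscle-like cells (49) from tumour 1 alone, and 39.2%, 16.1%, 29.8% and 19.2% of cells stayed unnamed. Of the 6509 cell barcodes, 17 occurred in more than 1 library. The file of tumour 1 lists every gene and those of tumours 2 to 4 list genes seen in at least 5 cells, so for Fosb and Hspa1a in tumour 3 no value is given.

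Tumour 4 stood at the top for nearly every member in nearly every cell class, and tumour 3 at the bottom for nearly every member in the classes measured in all 4 tumours. Over the 56 combinations of a member and a class measured in at least 3 tumours, tumour 4 was highest in 51. Over the 24 combinations measured in all 4 tumours (progenitor-like, neuron-like and myeloid-like cells), tumour 3 was lowest in 22, and the full order tumour 4, 2, 1, 3 held in 19. In astrocyte-like and oligodendrocyte lineage-like cells, measured in tumour 3 and a pair of other tumours, tumour 3 was lowest in 10 of 16 combinations and level with another tumour at 0 UMIs in 1. Each tumour is 1 library, so these orders describe the libraries and no test was made of them. Among the 8066 genes measured in progenitor-like cells of all tumours, 371 were highest in tumour 4 and lowest in tumour 3. Of the 7 members measured there, 6 were, and Jund was not. That pattern was itself read from the members in these data, so the member count describes it and is no separate support.

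Fos, the inducible partner of JUN in AP-1, spread the widest. In progenitor-like cells it stood at 75.7, 243, 2.04 and 671 CPM in tumours 1 to 4, a mean of 248 ± 300 (SD, n = 4; the SD exceeds the mean). Tumour 3 gave 11 Fos UMIs in 628 cells, with an exact 95% Poisson interval of 1.02 to 3.65 CPM that covers counting error only, while tumour 4 gave 1320 UMIs in 157 cells and an interval of 636 to 709 CPM. No interval of any tumour met that of another. The difference between the highest and the lowest tumour was 5.82 on the log2(CPM + 10) scale, the largest of all 8066 genes, whose median was 0.47. The next genes in that order were Rps3a3, Cd74, S100a9, S100a8 and H2-Ab1, of which Cd74 and H2-Ab1 belong to antigen presentation and S100a8 and S100a9 are neutrophil proteins. In neuron-like and myeloid-like cells the Fos range was 5.05 and 4.61, in both classes 3rd, among 8162 and 6630 genes. In myeloid-like cells the ranges of Junb (1.399) and Jund (1.395) exceeded those of 80.35% and 80.29% of genes. For the other members measured there, that share was 94.1% or more.

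**Figure D1:**
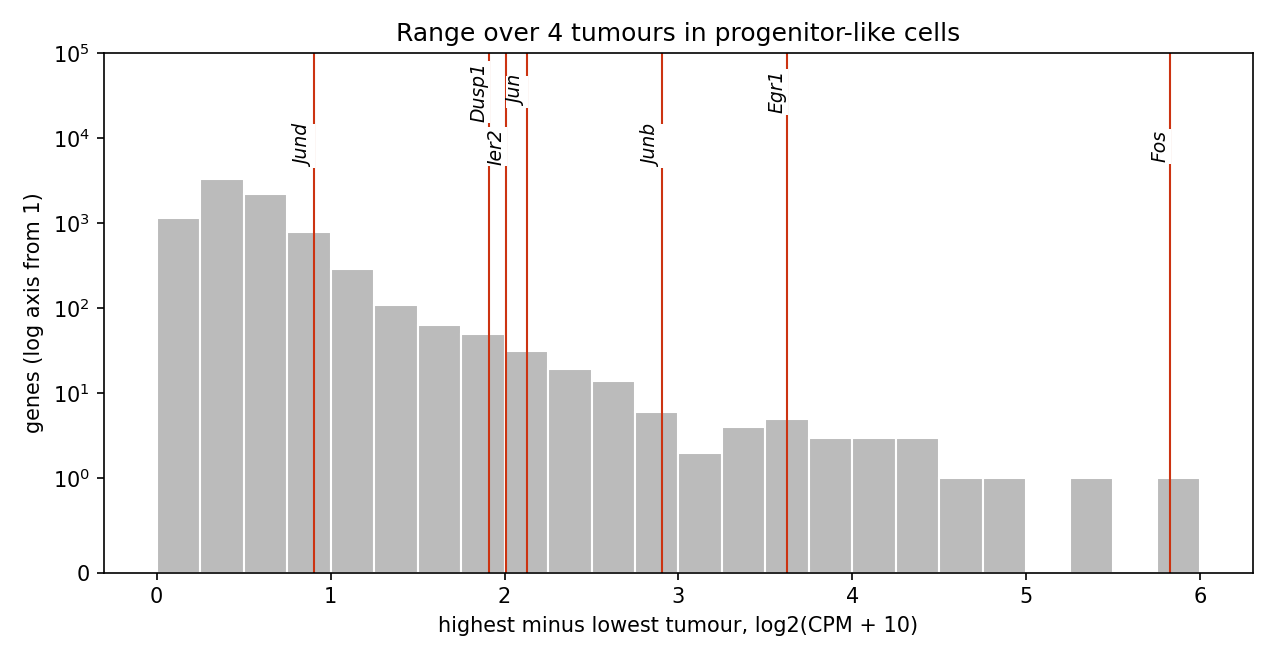
Range over the 4 tumours in progenitor-like cells, as the highest minus the lowest log2(CPM + 10) per gene (x axis), for all 8066 genes (y axis, number of genes), with the measured members marked by lines. Fos lies at the far right at 5.82, the other members except Jund lie at 1.91 or above, and the median gene lies at 0.47.

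Egr1 followed the same order over a smaller span. It stood at 94.7, 270.2, 21.3 and 376 CPM in progenitor-like cells, a log2 range of 3.62 that was 16th among the 8066 genes by rank. Its neuron-like values were 70.6, 153, 3.53 and 266 CPM. In both classes tumour 3 was lowest, and the neuron-like value there rests on 3 UMIs in 157 cells.

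Jun, whose protein pairs with FOS, stood at 273, 580, 185 and 840 CPM in progenitor-like cells, with a log2 range of 2.13. Junb, a JUN family member that can replace or oppose JUN in AP-1, stood at 48.7, 78.4, 14.6 and 175 CPM, with a range of 2.91. Ier2, a small nuclear immediate early protein, stood at 130, 378, 92.0 and 400 CPM, with a range of 2.01. Tumours 4 and 2 were the upper pair for all 3 genes, and for Ier2 their Poisson intervals (372 to 429 and 368 to 388 CPM) met.

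Dusp1, the MAP kinase phosphatase, stood at 27.2, 56.6, 25.4 and 123 CPM, so that tumours 1 and 3 had overlapping intervals (22.9 to 31.9 and 21.3 to 30.03 CPM) and tumour 4 stood apart. Jund is the JUN family member known to be present without a stimulus in most cells. Its progenitor-like values were 269, 400, 209 and 390 CPM, with tumour 2 on top and a log2 range of 0.90, which 89.95% of genes did not reach. In the 6 classes measured in at least 3 tumours, tumour 4 was highest for Jund in 3, against all 6 for Fos, Egr1, Ier2, Atf3 and Dusp1.

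The low members of the set in progenitor-like cells were Fosb, Atf3 and Hspa1a. Fosb, a FOS family member, stood at 18.2, 29.0 and 93.6 CPM in tumours 1, 2 and 4. Atf3, a stress-induced bZIP factor, stood at 2.05, 2.36, 0.185 and 12.7 CPM, from 11, 34, 1 and 25 UMIs. Hspa1a stood at 5.76, 0.416 and 8.14 CPM in tumours 1, 2 and 4, and 26 of its 31 UMIs in tumour 1 came from 1 cell. Hspa1a and Hspa1b are near-identical copies and the treatment of reads that match both is not known from the labels, so the Hspa1a counts are uncertain.

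**Figure D2:**
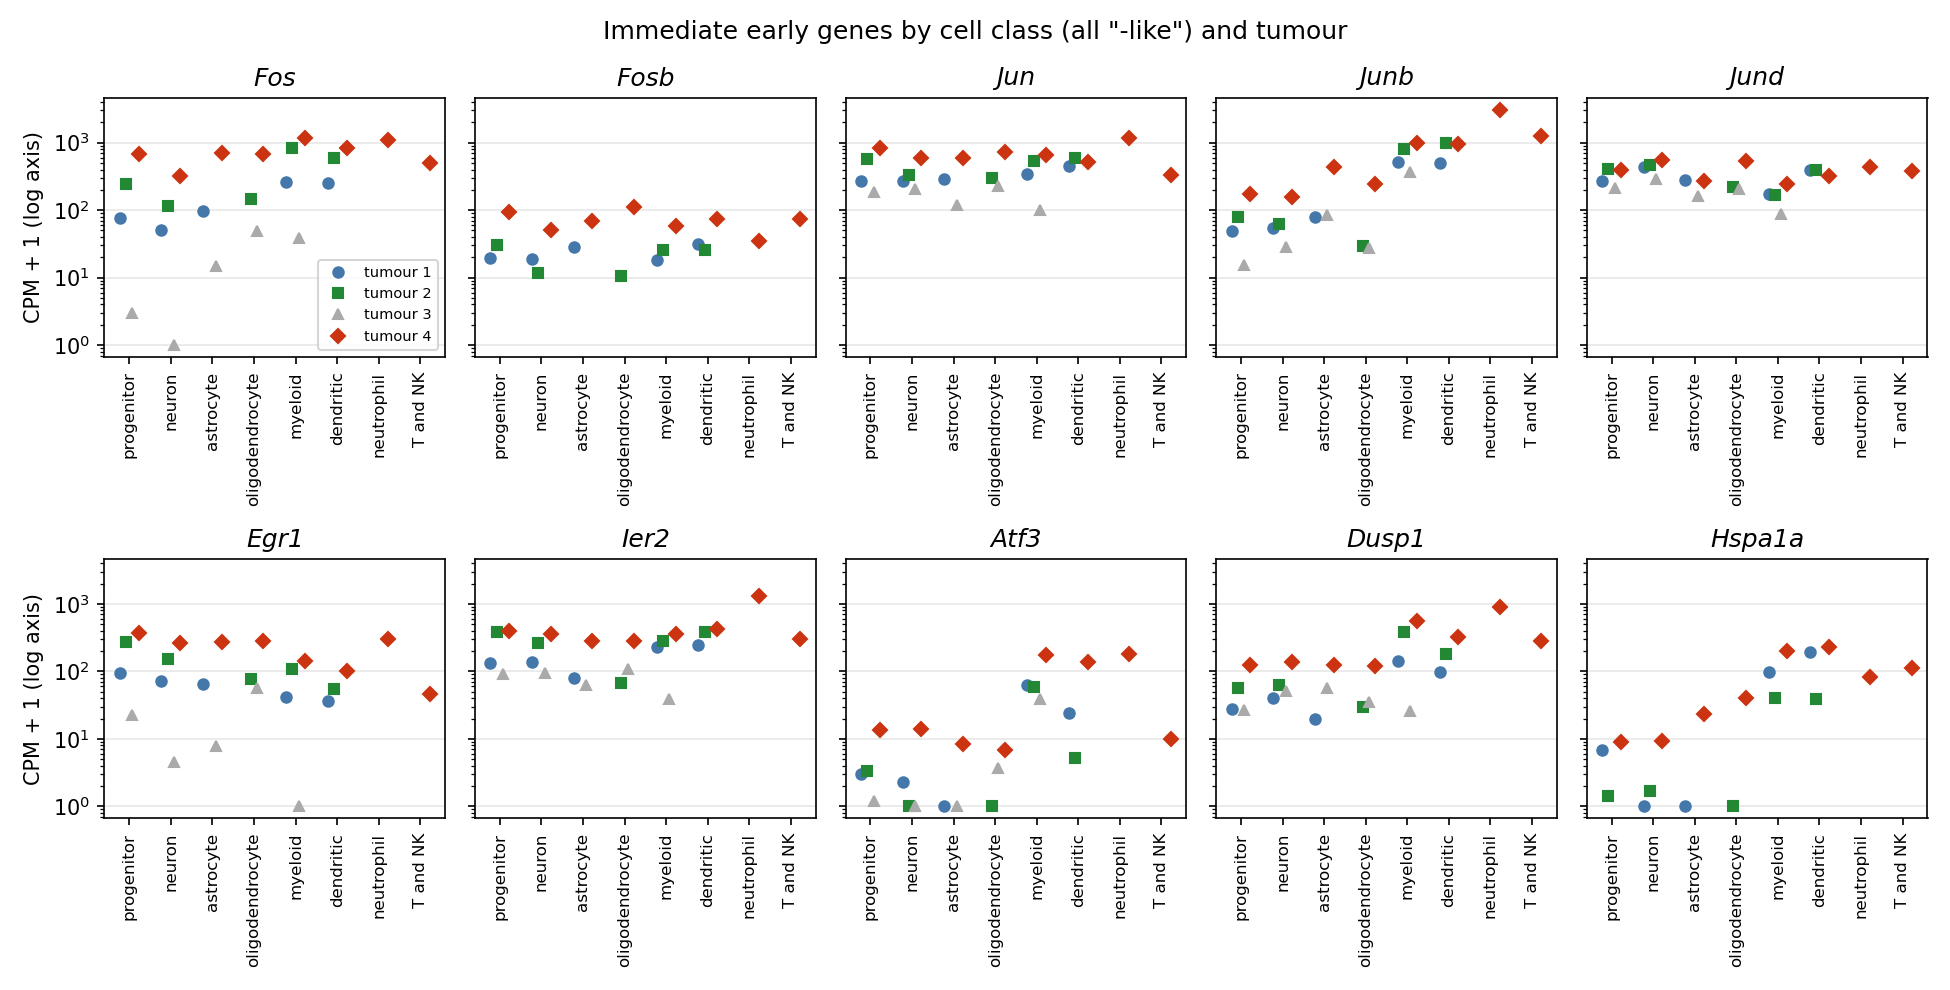
Level of each member (y axis, CPM + 1, log axis) in each cell class (x axis), 1 point per tumour with at least 10 cells of the class. Of the members measured in all 4 tumours, Jund spreads least in progenitor-like cells, and Junb lies higher in myeloid-like than in progenitor-like cells in 4 of 4 tumours.

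Depth and cell makeup also differed between the tumours, with tumour 3 lowest in depth, and their part in these values was not tested. Progenitor-like cells had median depths of 15062, 8712, 7104 and 11508 UMIs, mitochondrial shares of 3.65%, 2.99%, 3.46% and 3.99%, and 45.6%, 39.3%, 31.05% and 28.7% of them were in cycling-like clusters. When every cell was thinned to 2000 UMIs, Fos was found in 17.1%, 34.7%, 0.637% and 54.1% of progenitor-like cells, against 52.0%, 65.1%, 1.43% and 82.2% without thinning. The thinned shares kept the order of the CPM values, tumour 4, 2, 1, 3. No class here is known to lack Fos, so no background share could be read for it.

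RNA of immune cells was also present in the progenitor-like sums. Neutrophil markers (11 genes; 10 or 11 listed in tumours 1, 2 and 4 and 5 in tumour 3) summed to 105, 11, 6.30 and 620 CPM, and myeloid markers (12 genes, 10 or 11 listed) to 84.8, 19.8, 19.3 and 226 CPM. Tumours 4 and 3 were again highest and lowest, but tumour 1 stood above tumour 2 for both lists, the reverse of Fos, Egr1, Jun, Junb, Ier2 and Dusp1. Among these markers Ly6g was listed at 0 in tumour 1, Mmp8 in tumour 2, G0s2 and Tmem119 in tumour 3, and Mrc1 in tumour 4. The part of immune RNA in the members' values was not tested. In tumour 4 the neutrophil genes S100a9 and S100a8 reached 1.05% and 0.988% of their neutrophil-like level in progenitor-like cells, and the microglia and macrophage genes C1qb and C1qa reached 1.67% and 1.71% of their myeloid-like level. Fos reached 61.1% of its neutrophil-like and 58.2% of its myeloid-like level there, and Egr1 reached 123% and 262%. Junb stood lower, at 5.69% and 17.95%, as did Atf3, at 7.13% and 7.29%, and Hspa1a, at 9.97% and 4.13%; all 3 were above the marker genes.

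**Figure D3:**
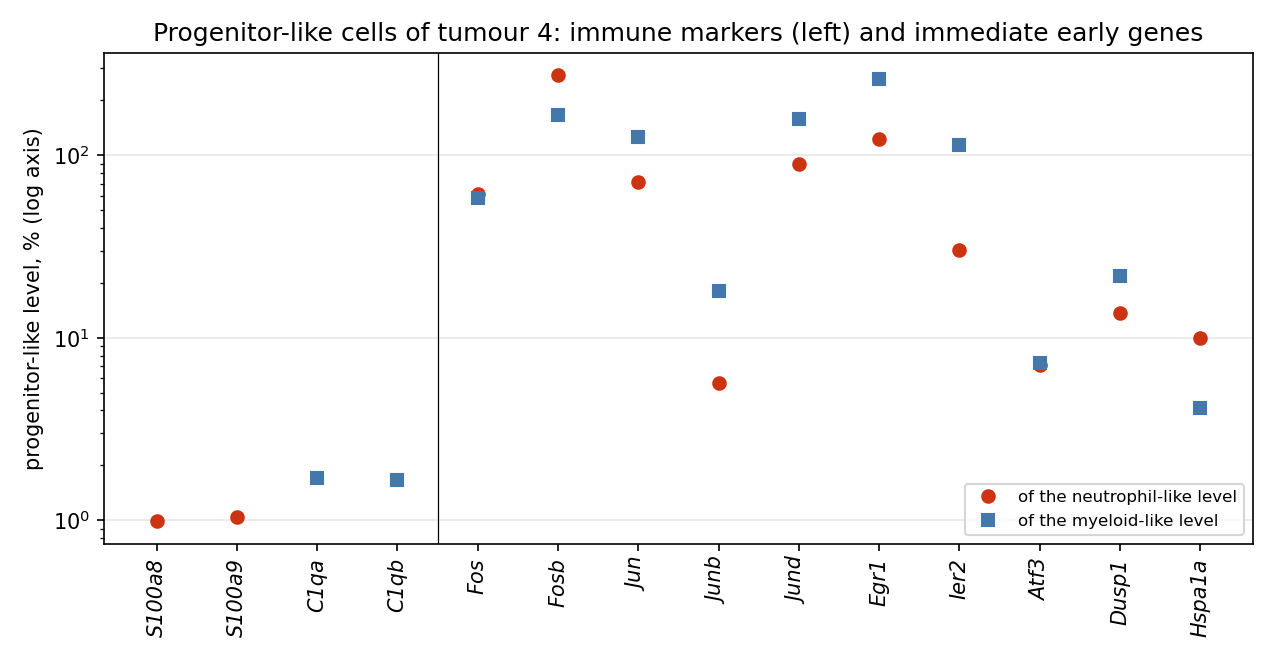
Level in progenitor-like cells of tumour 4 as a percent of the level in the neutrophil-like or myeloid-like cells of the same tumour (log axis), for 4 marker genes and for the 10 members. The markers lie between 0.988% and 1.71% and every member lies above 4%.

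Whether single cells that held Fos also held the others was read within progenitor-like cells thinned to 2000 UMIs. In tumours 1, 2 and 4 there were 48, 512 and 85 cells with a Fos UMI and 233, 962 and 72 without; tumour 3 had 4 with and is left aside. Egr1 was found in 25%, 48.05% and 58.8% of cells with Fos and in 10.3%, 32.9% and 25% of those without. Ier2 was found in 33.3%, 61.1% and 57.7% against 20.6%, 43.8% and 22.2%, and Jun in 45.8%, 67.6% and 78.8% against 35.2%, 61.2% and 47.2%. Junb was also found more often with Fos in all 3 tumours, with gaps of 2.27 to 27.1 percentage points, while Jund and Dusp1 were found more often in tumours 2 and 4 and less often in tumour 1. The gaps were less even in other classes, read where at least 10 cells had a Fos UMI. In neuron-like cells Egr1, Junb and Jund were found more often with Fos in 2 of 2 tumours and Jun, Ier2 and Dusp1 in 1 of 2. The other way were Jun (43.5% against 44.5%) and Ier2 (33.7% against 35.6%) in tumour 2 and Dusp1 (12% against 29.55%) in tumour 4. In myeloid-like cells Jun, Ier2, Junb and Dusp1 were found more often with Fos in 3 of 3 tumours and Egr1 and Jund in 2 of 3. The other way were Egr1 in tumour 2 (10.6% against 17.2%) and Jund in tumour 1 (14.3% against 36.6%). Cells of a tumour share their library and are not replicates, so these shares carry no test.

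**Figure D4:**
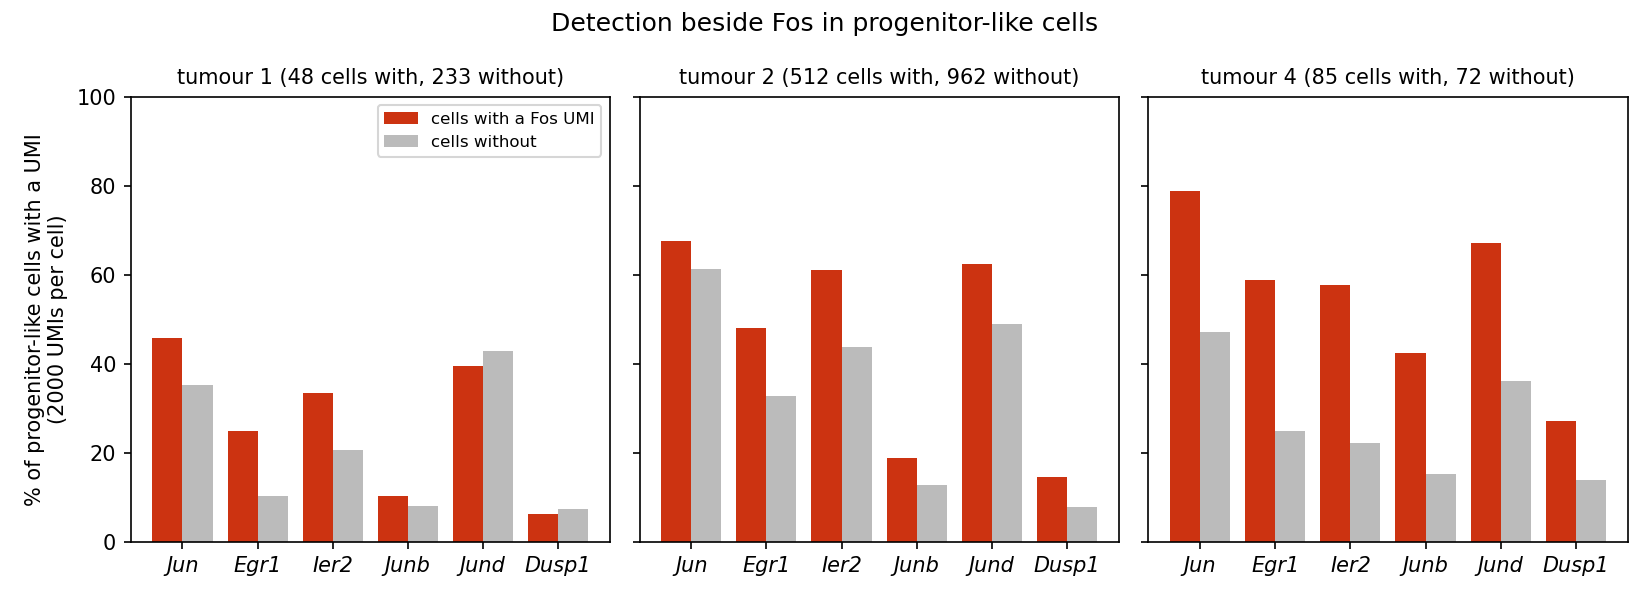
Share of progenitor-like cells with a UMI of each of 6 members (y axis, percent, cells thinned to 2000 UMIs), among cells with and without a Fos UMI, in tumours 1, 2 and 4. Egr1, Ier2, Jun and Junb are higher beside Fos in all 3 tumours.

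The neuron-like cells of the tumours, named by genes such as Tubb3, Stmn2 and Cntn2, held less Fos and Egr1 and more Jund and Dusp1 than the progenitor-like cells beside them. The classes were compared with UMIs summed per tumour and class, as log2(CPM + 10), with limma and the tumour as a block, and a call means a Benjamini-Hochberg adjusted p under 0.05. Of 7 members tested, 4 passed, 2 higher and 2 lower; of all 7471 genes tested, 47.1% passed (25.3% were higher in the neuron-like class and 21.8% lower). The median difference was -0.13 for the members and 0.03 for all genes, so the number called is close to the background.

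Fos stood at 50.4, 115, 0 and 322 CPM in neuron-like cells, lower than in the progenitor-like cells of the same tumour 4 times of 4. In tumour 3, 0 UMIs allow up to 3.53 CPM, taking 3 UMIs as the limit. That is above the 2.04 CPM of its progenitor-like cells, so this pair was not apart beyond counting error. The Fos difference over the 4 tumours was -0.71 (SE 0.12, limma adjusted p = 5.75e-05). Egr1, also lower in 4 of 4, differed by -0.71 (SE 0.11, limma adjusted p = 3.35e-05). Fosb, which could be fitted in tumours 1, 2 and 4 only, was 17.7, 10.6 and 50.6 CPM and differed by -0.57 (SE 0.16, limma adjusted p = 0.00914, lower in 3 of 3). The tumours' ranges overlapped between the classes for each of these genes, and the differences appear within tumours.

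Jund stood at 441, 459, 285 and 552 CPM in neuron-like cells, higher than in progenitor-like cells in 4 of 4 tumours. It differed by 0.45 (SE 0.07, limma adjusted p = 3.56e-05). Dusp1 stood at 39.1, 62.0, 49.5 and 137 CPM, also higher in 4 of 4, and differed by 0.35 (SE 0.11, limma adjusted p = 0.0153). Jun (-0.29, limma adjusted p = 0.106), Ier2 (-0.13, adjusted p = 0.229) and Junb (0.06, adjusted p = 0.722) did not pass. The Dusp1 call was lost without tumour 3 (0.22, limma adjusted p = 0.160; 0.00206 to 0.673 over its 13 alternatives), and Jun passed without tumour 1 (-0.38, adjusted p = 0.0350) or tumour 3 (-0.43, adjusted p = 0.00394; 0.00394 to 0.752 over its alternatives). Of the 13 alternatives Fos passed 11, Jund 11, Egr1 10 and Dusp1 8: the Fos and Egr1 calls were lost with the likely doublets kept, the Egr1, Jund and Dusp1 calls with cells thinned to 2000 UMIs, the Dusp1 call also on mean deposited log2 values, and all 4 without the tumour block.

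Genes linked to the members passed about as often as other genes between neuron-like and progenitor-like cells. Over the lists below 30 of 60 passed, beside 45.2% of all 6837 genes that, like these, had a mean of at least 10 CPM in both classes. Of the upstream kinases and factors 9 of 16 tested passed, 6 higher, among them Mapk10 (1.33), Mapk8 (0.79) and Mapk9 (0.45), the kinases known to phosphorylate JUN. Other immediate early transcription factors passed in 4 of 7, with Ier3 (1.15) higher and Ier5 (-1.08) and Myc (-0.94) lower. Feedback and mRNA decay genes passed in 6 of 13, with the growth arrest gene Gadd45a (1.46) higher and Zfp36l1 (-1.73), which promotes decay of AU-rich mRNAs, lower. Of the heat shock genes 9 of 16 passed, 6 lower, with the mitochondrial chaperones Hspd1 (-0.79), Hspe1 (-0.77) and Hspa9 (-0.45) the most changed. Other AP-1 and partner bZIP factors passed in 1 of 4 (Atf2, 0.58), and effector genes in 1 of 4 (Plk3, 1.13). The medians of these lists ran from -0.21 (heat shock genes) to 0.15 (upstream genes), beside 0.03 for all genes. Of all calls 53.7% were higher, against 34.2% when the mean deposited log2 values were fitted.

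Within the tumour progenitors, the cycling-like cells held less Junb than the granule progenitor-like cells. Junb stood at 48.2, 51.1, 9.44 and 124 CPM in cycling-like and 51.5, 119, 22.5 and 204 CPM in granule progenitor-like cells, lower in 4 of 4 tumours though the ranges overlap. The difference was -0.64 (SE 0.12, limma adjusted p = 0.000494). Of 7 members tested 4 passed, all lower, with a median of -0.20, against 29.9% of all 7334 genes (14.6% higher, 15.3% lower), whose median was -0.02.

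The other 3 calls were small. Ier2 differed by -0.36 (SE 0.10, limma adjusted p = 0.0154) from 128, 374, 70.0 and 289 CPM in cycling-like and 135, 376, 107 and 510 CPM in granule progenitor-like cells. Jun stood at 278, 592, 172 and 738 CPM against 282, 610, 229 and 947 and differed by -0.20 (SE 0.06, limma adjusted p = 0.0195, lower in 4 of 4). In both genes tumour 4 shows the widest gap of the 4 tumours in CPM. Jund stood at 269, 401, 206 and 325 CPM against 269, 436, 230.0 and 451 and differed by -0.18 (SE 0.07, limma adjusted p = 0.0422, lower in 3 of 4). These calls depended on single tumours. Without tumour 3 or 4 the limma adjusted p was 0.175 or 0.0599 for Ier2 and 0.143 or 0.0777 for Jun, and for Jund it was 0.0765, 0.0833 and 0.254 without tumours 2, 3 and 4. Over their 13 alternatives the adjusted p ran from 0.00274 to 0.864, 0.0152 to 0.923 and 0.000626 to 0.772 in the order Ier2, Jun, Jund, and the calls held in 7, 5 and 2 of them, against 12 for Junb.

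Fos, Egr1, Dusp1 and Fosb did not pass between these progenitor classes. Fos stood at 80.0, 247, 2.75 and 407 CPM in cycling-like and 88.0, 255, 0.593 and 895 CPM in granule progenitor-like cells. The difference was -0.25 (SE 0.17, limma adjusted p = 0.30), and tumour 4 held most of it: without that tumour it was 0.03. Egr1 differed by 0.12 (limma adjusted p = 0.372), Dusp1 by 0.05 (0.747) and Fosb, in 3 tumours, by 0.17 (0.393).

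Among related genes, Btg2, an antiproliferative immediate early gene (-0.98), and Myc (-0.48) were lower in cycling-like cells and Klf6 (0.99) was higher, among 4 of 8 other immediate early transcription factors that passed; of all genes at the minimum in both classes 28.5% passed. Feedback genes passed in 5 of 14, with Gadd45g (0.45) higher and the NF-kB inhibitor gene Nfkbia (-0.41) lower. Heat shock genes passed in 6 of 16, among them Hsp90ab1 (-0.40), Hsf2 (-0.44) and Hspa9 (0.38), and upstream genes in 4 of 17, among them Mapk3 (-0.66). Of the 5 effector genes tested 0 passed in limma. Of all calls 48.8% were higher, against 79.4% on the mean deposited log2 values.

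Astrocyte-like cells, few in number (11, 17 and 28 in tumours 1, 3 and 4), held more Junb than progenitor-like cells. Junb stood at 78.2, 83.0 and 441 CPM against 48.7, 14.6 and 175, higher in 3 of 3, with a difference of 1.26 (SE 0.22, limma adjusted p = 0.00118). Ier2 stood at 78.2, 62.3 and 279 CPM against 130, 92.0 and 400, lower in 3 of 3, with a difference of -0.56 (SE 0.16, limma adjusted p = 0.0488). Of 7 members tested these 2 passed, against 4.76% of all 7613 genes (3.11% higher, 1.64% lower), and the medians were -0.28 and -0.06. Markers of other cell types were also present in these sums. The ependymal and choroid plexus markers (5 genes; 5, 1 and 2 listed) summed to 4.602, 0 and 16727 CPM in the astrocyte-like cells and to 3.53, 0.927 and 24.9 CPM in the progenitor-like cells of tumours 1, 3 and 4, with Ttr, Ccdc153, Tmem212 and Folr1 at 0 in astrocyte-like cells of tumour 1 and Foxj1 at 0 in those of tumour 3. Neutrophil markers (11 genes; 11, 5 and 10 listed) summed to 110, 0 and 1522 CPM against 105, 6.30 and 620, with all 5 listed in tumour 3 at 0. Myeloid markers (12 genes; 11, 10 and 11 listed) summed to 92.0, 125 and 282 CPM against 84.8, 19.3 and 226. In the astrocyte-like cells 6, 4 and 1 of them were at 0. Tumour 4 was highest for each list. Without tumour 4 the Junb difference was 1.25 (limma adjusted p = 0.00425, and 1.34e-06 to 0.675 over its 11 alternatives). The part of RNA from other cell types in the Junb difference was not tested.

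Fos in astrocyte-like cells was 96.6, 13.8 and 696 CPM (difference 0.45, limma adjusted p = 0.224) and Egr1 64.4, 6.92 and 274 CPM (-0.61, adjusted p = 0.0820). Neither passed, and the tumour 3 values rest on 2 Fos UMIs and 1 Egr1 UMI. The Ier2 call was lost without tumour 1, 3 or 4 (limma adjusted p = 0.107, 0.119 and 0.252; 0.0369 to 0.998 over its 11 alternatives), and Jun (-0.33, adjusted p = 0.209) passed without tumour 1 (-0.54, adjusted p = 0.0211; 0.0211 to 0.909 over its alternatives). The Ier2 call held in 1 of the 11 alternatives and the Junb call in 8, lost on mean deposited log2 values, with thinned cells and without the block. Of all calls 65.5% were higher, against 36.2% on the mean deposited log2 values.

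Among genes with a mean of at least 10 CPM in both classes, of which 4.04% passed, 4 of 15 feedback genes passed and all 4 were higher in astrocyte-like cells, among them Spry2 (1.85) and Dusp6 (1.55), inhibitors of the ERK pathway, and Gadd45a (1.10). Klf2 (1.45) and Ier3 (1.22) were higher and Ier5 (-0.73) was lower, the 3 of 9 other immediate early transcription factors that passed. Cryab (2.21), a small heat shock protein of glia, was the 1 of 16 heat shock genes. The effector, other bZIP and upstream lists had 0 of 5, 0 of 5 and 0 of 16 past the limma threshold. List medians ran from -0.23 (heat shock genes) to 0.38 (feedback genes), beside -0.07 for all these genes.

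Myeloid-like cells, named by microglia and macrophage markers, held more Junb, Fos and Dusp1 and less Egr1 and Jund than the progenitor-like cells. Of the 7 members with a mean of at least 10 CPM in both classes 5 passed, 3 higher and 2 lower, against 60.7% of the 5234 such genes, of which 12.1% were higher and 48.6% lower. Over all 6945 genes fitted 66.7% passed (13.4% higher, 53.2% lower) and the median difference was -0.56, a shift that median-ratio scaling reduces to -0.21; on that scaling 38.9% of the calls were higher, against 20.1%. The 5 members keep their directions on it.

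Junb stood at 523, 797, 363 and 974.8 CPM in myeloid-like cells, above every progenitor-like value, and the groups did not overlap. It differed by 3.18 (SE 0.21, limma adjusted p = 3.27e-06). Fos stood at 259, 836, 37.6 and 1154 CPM, higher than in progenitor-like cells in 4 of 4 tumours, with a difference of 1.54 (SE 0.19, limma adjusted p = 9.12e-05). The tumours kept the Fos order of the progenitor-like cells, 4, 2, 1, 3, and the classes overlapped across tumours. The class joins 2 unlike clusters, however. One, led by Lyz2, Chi3l3 and Ms4a7, had monocyte markers above the other cells and held 45, 88, 3 and 402 cells of tumours 1 to 4. The other, led by genes such as Fcrls, Trem2 and P2ry12, had monocyte markers below the other cells and held 10, 7, 8 and 56, so that most myeloid-like cells of tumour 3 were in it and most of the other tumours were not. Fos stood at 268, 946, 37.0 and 1179 CPM in the first cluster and at 212, 50.4, 37.9 and 868 CPM in the second, where the order of tumours 2 and 1 was the other way round and rests on 4 and 23 UMIs. Junb stood at 554, 859, 333 and 998.8 CPM in the first and 369, 353, 379 and 708 CPM in the second, all above the progenitor-like values.

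Atf3 and Hspa1a reached a mean of 10 CPM in the myeloid-like class and not in progenitor-like cells, so their values are given as a description with no test. Atf3 stood at 60.9, 57.7, 37.6 and 175 CPM, all above the progenitor-like maximum of 12.7. Hspa1a stood at 96.7, 39.0 and 197 CPM in tumours 1, 2 and 4, above its progenitor-like values, and 1 cell gave 227 of its 924 UMIs in tumour 4. Dusp1 stood at 140, 388, 25.1 and 562 CPM, higher in 3 of 4 tumours, and differed by 1.67 (SE 0.35, limma adjusted p = 0.00211). Its tumour 3 value rests on 2 UMIs in 11 cells and was level with the 25.4 CPM of progenitor-like cells.

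Egr1 and Jund ran the other way. Egr1 stood at 40.6, 106, 0 and 143 CPM in myeloid-like cells, lower in 4 of 4 tumours, and differed by -1.32 (SE 0.16, limma adjusted p = 7.55e-05). In tumour 3, however, 0 UMIs in 11 cells allow up to 37.6 CPM, above the 21.3 CPM of its progenitor-like cells. Jund stood at 175, 165, 87.7 and 247 CPM, lower in 4 of 4, and differed by -0.91 (SE 0.15, limma adjusted p = 0.000486). Jun, at 343, 527, 100.2 and 664 CPM (-0.24, adjusted p = 0.218), Ier2, at 231, 277, 37.6 and 353 CPM (-0.23, adjusted p = 0.424), and Fosb, in 3 tumours (-0.28, adjusted p = 0.127), did not pass in limma. Ier2 did without tumour 1 (-0.57, limma adjusted p = 0.0376; 0.0310 to 0.806 over its 13 alternatives). The Junb and Jund calls held in all 13 alternatives, the Fos and Egr1 calls in 12, lost without the tumour block, and the Dusp1 call in 11, lost there and with thinned cells.

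Most feedback genes were higher in myeloid-like cells: of 12 with a mean of at least 10 CPM in both classes, 9 passed higher and 1 lower, beside 12.1% and 48.6% of all such genes, among them Rgs2 (3.58), a regulator of G protein signalling, and Zfp36 (3.31) and Zfp36l2 (2.44), which promote decay of AU-rich mRNAs. Other immediate early transcription factors passed in 5 of 7, 3 higher, among them Ier3 (2.14). Effector genes passed in 3 of 4, all 3 higher, among them Sgk1 (3.5). Of the heat shock genes 9 of 13 passed, 8 lower and 1 higher, led by Hsp90aa1 (-1.88), Hsp90ab1 (-1.79) and Hspd1 (-1.61). Upstream genes passed in 6 of 12, 3 in each direction. List medians ran from -0.68 (heat shock genes) to 1.44 (feedback genes), beside -0.46 for all genes at the minimum in both classes.

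**Figure D5:**
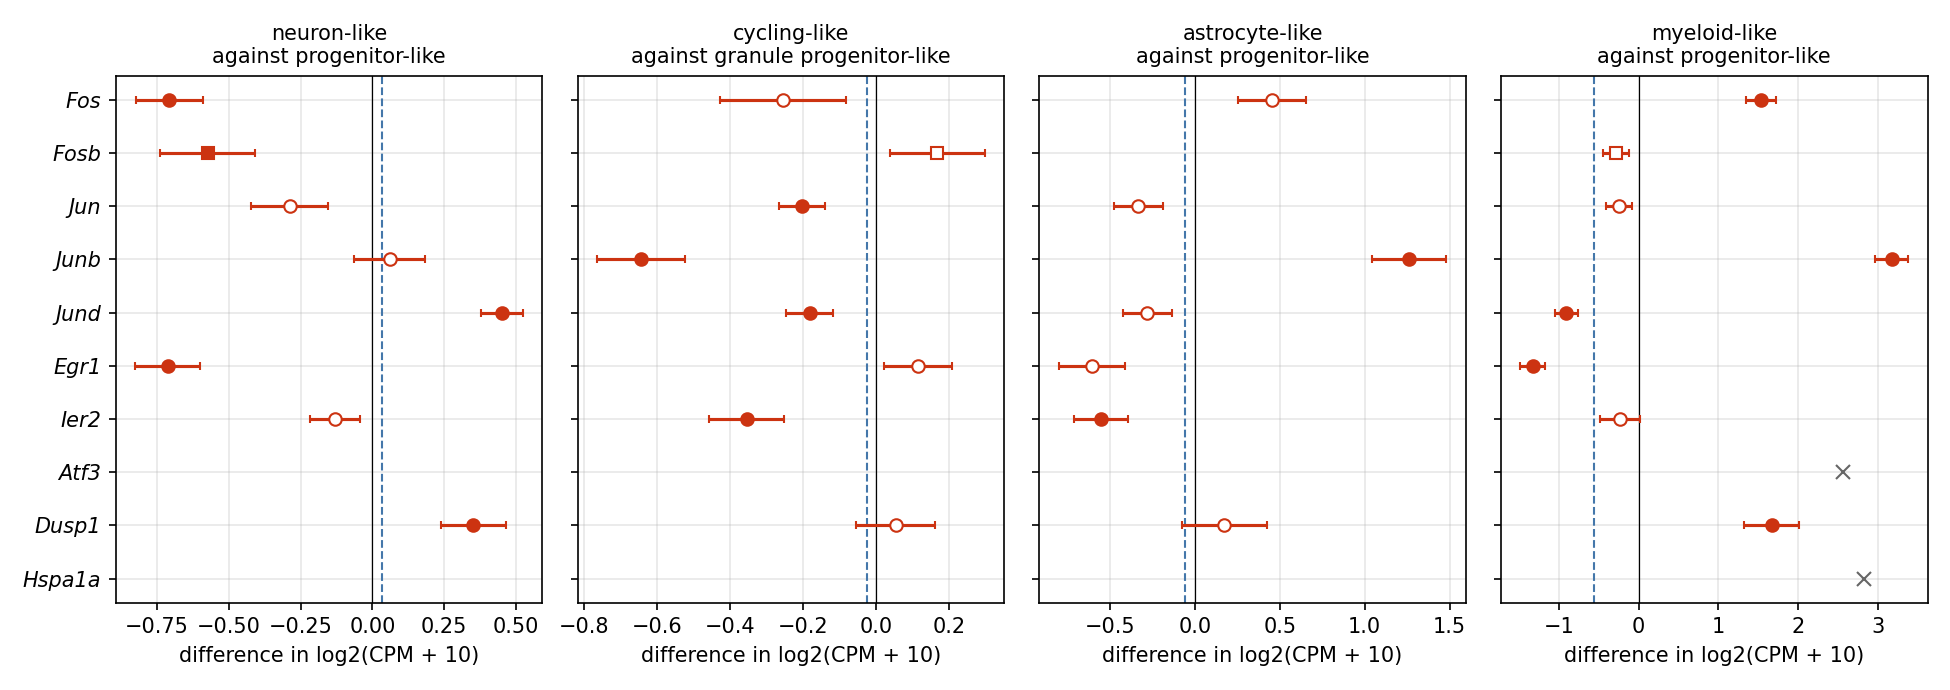
Difference of each member (x axis, log2(CPM + 10), first class minus second, bars show the SE of limma) in the 4 comparisons; circles are fits on all tumours with the classes, squares fits on tumours 1, 2 and 4, filled symbols passed an adjusted p under 0.05, grey crosses are values with no test (a mean under 10 CPM in 1 class) and the dashed line is the median of all genes. Fos is lower in neuron-like and higher in myeloid-like cells than in progenitor-like cells, and Jund runs the other way in both.

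T and NK cell-like cells (159) and neutrophil-like cells (378) reached 10 cells in tumour 4 alone, so they can be described there with no test. Junb stood at 3075 CPM in neutrophil-like cells (exact 95% Poisson interval 2991 to 3161), 3.15 times the 974.8 CPM of myeloid-like cells. Ier2 stood at 1325 CPM (1270.3 to 1382), 3.75 times the myeloid-like 353, and Egr1 at 305 (278 to 332), 2.12 times 143. Hspa1a stood lower, at 81.6 CPM (68.4 to 96.7), 0.414 times the myeloid-like value. Past a fold of 2 on log2(CPM + 10), 3 members were higher, against 8.5% of all 6908 genes, and 1 was lower, against 7.41%.

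Fos did not separate these innate cells, at 1099 and 1154 CPM with intervals that met, nor did Atf3, at 178 and 175 CPM. The T and NK cell-like cells had Junb at 1246 CPM (1174 to 1322) and Fos at 503 (457 to 552), 0.436 times the myeloid-like level. Atf3 stood at 9.09 CPM (3.92 to 17.9), from 8 UMIs, 0.0521 times the myeloid-like level, and Egr1 at 45.4 CPM, 0.317 times. Of the members at 10 CPM or more in both classes, 2 (Fos and Egr1) were at least 2-fold lower and 0 were at least 2-fold higher. With Atf3 counted, 3 members were that far apart. Of all 7028 genes 12.3% were lower and 8.18% higher by that fold. These shares include genes under 10 CPM in a class, so they are not under the same filter as the 2 members.

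In dendritic cell-like cells, Fos stood at 249, 583 and 843 CPM in tumours 1, 2 and 4, Junb at 505, 1003 and 945, and Hspa1a at 195, 37.5 and 231. Tumour 2 was lowest for Hspa1a and highest for Junb. Oligodendrocyte lineage-like cells had Fos at 144, 47.6 and 688 CPM in tumours 2, 3 and 4, and the tumour 3 value, from 18 UMIs in 39 cells, was the highest of its named classes, with an interval (28.2 to 75.2) that met that of the 11 myeloid-like cells (7.75 to 109.8).

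In tumour 4, where every class except skeletal muscle-like was present, each member had its own order of classes. Fos ran from myeloid-like and neutrophil-like cells, whose intervals met, through dendritic cell-like (843), astrocyte-like (696), oligodendrocyte lineage-like (688) and progenitor-like cells (671), the last 3 not apart beyond counting error, to T and NK cell-like (503) and neuron-like cells (322). Junb fell from neutrophil-like through T and NK cell-like to myeloid-like and dendritic cell-like cells (945), then astrocyte-like (441), oligodendrocyte lineage-like (239), progenitor-like (175) and neuron-like cells (153), and neighbours met in the myeloid-like and dendritic cell-like pair and in the last pair. Egr1 was the member with progenitor-like cells on top (376), above neutrophil-like cells, and T and NK cell-like cells at the bottom.

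Dusp1 and Ier2 were highest in neutrophil-like cells (900 and 1325 CPM) and Hspa1a in dendritic cell-like cells (231). Jun was also highest in neutrophil-like cells (1179), ahead of progenitor-like cells (840). Jund was highest in neuron-like (552) and oligodendrocyte lineage-like cells (528) and lowest in myeloid-like cells (247), and Fosb neighbours met throughout, from 112 CPM in oligodendrocyte lineage-like to 34.1 CPM in neutrophil-like cells. Immune cells held 53.6% of all UMIs of tumour 4. They held 93.9% of its Atf3, 93.3% of its Hspa1a, 89.4% of its Junb, 83.6% of its Dusp1 and 69.2% of its Fos UMIs, but 47.8% of Jund, 46.2% of Fosb and 38.3% of Egr1.

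Across the 32 sums of a class and a tumour, the genes with the most similar pattern (Pearson's r of log2(CPM + 10), among 8618 genes, as a description) differed between members. Jun was closest to Ier2 (0.91), Egr1 (0.87) and Fos (0.87), and Fos was closest to Jun, Klf4 (0.85) and Rps2-ps10 (0.80). Junb was closest to Cd52 (0.95), Srgn (0.95) and Zfp36 (0.94), Atf3 to Itgam (0.91), Syk (0.90) and Lst1 (0.89), and Dusp1 to Zfp36 (0.89), Rgs2 (0.89) and Sertad1 (0.88), most of them known from blood cells. Jund was closest to Dusp5 (0.76), Pin4 (0.72) and Snhg12 (0.69). The sums share tumours and depth, and the lowest of all member pairs was Atf3 with Jund (-0.07).

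In progenitor-like cells 371 of all 8066 genes (4.6%) were highest in tumour 4 and lowest in tumour 3. They included 6 of 15 feedback genes (Dusp5, Dusp6, Zfp36, Gadd45b, Gadd45g and Ppp1r15a) and 2 of 8 other immediate early transcription factors (Klf4 and Ier3). Of the other lists, 1 of 5 effector genes (Rhob), 1 of 5 other bZIP genes (Mafg), 1 of 16 heat shock genes (Hspe1) and 0 of 17 upstream genes were among them. The sum of the 8 members listed in every tumour, in cells thinned to 2000 UMIs, had medians of 2, 4, 1 and 5 UMIs in progenitor-like cells, 2, 3, 1 and 4 in neuron-like cells and 3, 6, 1 and 8 in myeloid-like cells. It was 16 in neutrophil-like and 6 in T and NK cell-like cells of tumour 4, and 35.35% of the progenitor-like cells of tumour 3 had none of the 8.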

How the data were processed

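Single-cell RNA sequencing of 4 tumours was used. The deposited values are log2 values, log2(UMI count / size factor + 1), a form read from the values themselves; all of them fell on whole UMI counts, which were recovered. Cell Ranger, Seurat and the build mm10 are named in the submitters' processing notes, with versions not given in the sources used here. Total UMIs were 19446245, 23439893, 10458431 and 18242667 in tumours 1 to 4.

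The members and gene lists were chosen with earlier results of these data known, and the thresholds for naming clusters were set after clusters were seen. All members and list genes were kept out of the clustering (scanpy 1.11.5, leidenalg 0.10.2; 1000 variable genes, 30 principal components, 15 neighbours, resolution 1; first all cells, then the granule lineage scaled within tumour). Names came from marker lists, so the markers are not independent of them, and classes without a clear set stayed unnamed. Scrublet called 21 doublets (0.323%), which is too few to have worked, so the 100 cells with the highest doublet scores, at 0.8% per 1000 cells, were removed. UMIs were summed per tumour and class (at least 10 cells, at least 3 tumours), and log2(CPM + 10) of genes listed in every file (13149), with a mean of at least 10 CPM, was fitted with limma 3.58.1 (trend and robust moderation, R 4.3.3, tumour as a block). Tests left out 1542 genes used for clustering or as markers. The fit was checked on simulated counts. Both classes of a comparison come from the same tumours, and their deviations within a tumour correlated at 0.144 to 0.751. Fosb and Hspa1a were fitted on tumours 1, 2 and 4, a choice made after seeing the data. Members and list genes were counted over genes with a mean of at least 10 CPM in both classes, also a choice made after seeing the data. In the neuron-like, cycling-like and astrocyte-like comparisons the member counts were set beside shares over all genes fitted. The shares at this minimum were 45.2%, 28.5% and 4.04% there. Named genes were all members, in each other list those of the 3 with the largest difference among the genes that passed that are at this minimum in both classes, and the 3 most similar genes of each member. The counts of the other AP-1 and partner bZIP list in cycling-like and myeloid-like cells are not reported here.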

Additional observations from a re-analysis of the deposited data

Results flagged for a closer look

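The Atf3 level of tumour 4 stood far from those of the other 3 tumours in 4 classes, by a gap to the nearest tumour beyond Dixon's 95% critical value. It was 8.73 CPM in granule progenitor-like cells (the nearest tumour had 0.830), 22.9 CPM in mixed-phase progenitor-like cells (2.41), 13.1 CPM in neuron-like cells (1.26) and 175 CPM in myeloid-like cells (60.9). In the first 3 classes these are low levels, from 8, 7 and 8 UMIs. In all, 48 groups of 4 tumours were looked at and 4 stood out; chance alone marks about 1 in 20 such groups.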

How the results depend on the processing

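In all, 1204 values were recomputed. Of the 885 that belong to called differences, 0 had the other sign. Over all of them, 142 were weaker (for members, a call lost), 8 were stronger (for members, a call gained) and 17 single values moved. Besides these, 41 counts of genes or members past a threshold moved. Of the 159 recomputed differences of members that had not passed, 21 had the other sign, in 9 of 13 pairs of member and comparison, and 0 of these passed in limma. With no replicate block, so that spread between tumours enters the error, the genes called fell to 1639 of 3516 for neuron-like against progenitor-like cells, 355 of 2190 for cycling-like against granule progenitor-like, 60 of 362 for astrocyte-like against progenitor-like, and the members called to 0, 0 and 0 (unadjusted limma p under 0.05 for 0 members in each) and 3 for myeloid-like (Atf3 counted), where Fos, Egr1 and Dusp1 were lost. With cells thinned to 2000 UMIs the genes called were 1174, 456 and 28 in the first 3 comparisons and the members 1, 1 and 0 (0 at an unadjusted p under 0.05 for astrocyte-like). With the likely doublets kept, the neuron-like comparison called 1732 genes and 2 members and the astrocyte-like 1 member. The cycling-like members called were 1 on mean deposited log2 values, 2 with median-ratio size factors and 1 with the genes and tumours 1, 2 and 4, an alternative chosen after seeing the data. Leaving out a tumour gave 1429 to 2383 genes and 1 to 4 members there, and 165 to 435 genes and 1 to 2 members for astrocyte-like. The astrocyte-like genes were 229 on mean deposited log2 values, 172 with a pseudocount of 1 and 111 without a filter, with 1 member each, and 1 member at resolution 2. Without a filter the myeloid-like comparison called 7003 genes, since more were tested. In tumour 4, genes at least 2-fold apart between neutrophil-like and myeloid-like cells were 1099, and 1654 with a pseudocount of 1, 235 on mean deposited log2 values and 1760 with doublets kept, with 2 of 4 members in the last pair of settings. For T and NK cell-like cells they were 1436, and 289 on mean log2 values, and the members were 3, and 6 with thinned cells and 5 with median-ratio size factors. Junb and Jund kept their myeloid-like calls in all 13 alternatives, and Junb its cycling-like call in 12 of 13. The cause of the other changes was not tested. The values of Fos, Egr1 and Atf3 in the neuron-like, astrocyte-like and myeloid-like cells of tumour 3 rest on 0 to 3 UMIs of each.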

Other observations

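Some member counts sat in single cells. In tumour 1, 26 of the 28 Hspa1a UMIs of granule progenitor-like cells came from 1 cell, as did 26 of the 28 Atf3 UMIs of skeletal muscle-like cells. In the 49 skeletal muscle-like cells of tumour 1, Fos stood at 83.9 CPM, Jund at 374 and Hspa1a at 0.

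In tumour 3, 54.05% of the 37 Fos UMIs came from glial cells, which held 5.12% of all its UMIs. The unnamed cells held 57.3% of all UMIs of tumour 1 and 44.3% of its Fos UMIs.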
